A study of Mus musculus with 2 samples.

Results

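The genes described here encode enzymes of steroid synthesis and the carriers that bring them cholesterol or electrons: Star, Tspo, Cyp11a1, Fdx1, Fdxr, Cyp17a1, Por, Cyp19a1, Hsd17b1 and Hsd3b7. They were chosen by name for their function, with earlier results of these data known. They are 10 of the 21728 protein-coding genes annotated on the autosomes and the X chromosome. For each gene, open sites and footprints were collected in the gene body and 50 kb on either side, on mouse build mm10 with GENCODE M21 annotation. All 10 genes had an open site within 500 bp of a transcript start in both libraries, against 62.3% of all protein-coding genes. Since the genes were chosen with earlier results known, this contrast is a description and tests nothing. Among all genes with a promoter peak, the levels ran from Por and Fdxr, which stood near the top, to Cyp19a1, which stood near the bottom. Around the starts, 8 of the 10 genes had more distal open regions than the median gene, with Hsd17b1 and Cyp11a1 having the most per unit of length.

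The data were DNase-seq of whole ovary, an assay in which the enzyme DNase I cuts DNA where chromatin is accessible. There were 2 libraries, biological replicates 1 and 2, from female B6CASTF1/J mice (a first-generation cross of C57BL/6 and CAST) aged 18 to 20 months. Both carry the same donor entry, and whether they came from the same or different animals is not given, so the spread between them may be partly technical. No other genotype, age, tissue or treatment was analysed, so values are described and no difference between conditions could be tested. The ovary holds granulosa, theca, luteal, stromal, vascular and immune cells and oocytes. A lower signal can come from fewer cells of a type or from less open chromatin in each, and these cannot be told apart here.

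Steroid synthesis begins when cholesterol is moved into the mitochondrion, where the enzyme P450scc cuts off its side chain to give pregnenolone. Mitochondrial P450 enzymes take their electrons from NADPH through ferredoxin reductase and ferredoxin, and P450 enzymes of the endoplasmic reticulum take theirs from P450 oxidoreductase. In the ovary, theca cells make androgens, granulosa cells turn them into estrogens, and the corpus luteum makes progesterone.

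A peak is a stretch where cuts are dense, and its signal is the authors' own value, scaled to the depth of its library by a factor that is not given. In replicate 1 each signal was a whole number of steps of 0.0108, and in replicate 2 of steps of 0.00782. A footprint is a short run of bases inside an open site that is cut less than its surroundings, as happens under a bound protein. Footprints were called by the authors in each library by itself. The libraries held 95898 and 83982 peaks in the longer of their deposited lists, with 181762 and 200993 footprints. The median peak signal was 0.797 in each library, and total read numbers were not used here. The windows of the 10 genes covered 1249 kb and held 153 open sites. Of these sites, 102 (66.7%) were found in both libraries, compared with 57.7% of all 112418 regions of the genome. The shared sites comprised 16 at the genes' own starts, 27 at starts of neighbouring genes and 59 distal regions, more than 500 bp from any start.

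The promoter signals spanned a wide range, and for 3 genes the start that was open was not the annotated 5′ end of the gene. With the strongest peak at any start, the genes' median percentile among all genes with a promoter peak was 50.5, close to the median of 51.7 over all such genes. Their median signal was 3.53 (replicate 1) and 4.38 (replicate 2), against 3.78 and 3.88 for all genes with a promoter peak. At the starts of principal transcripts (the main coding transcript of the APPRIS annotation) all 10 genes were again open in both libraries, against 59.0% of all genes. At the annotated 5′ end, 7 of the 10 were open, against 56.6%; the exceptions were Cyp11a1, Por and Cyp19a1.

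**Figure D1:**
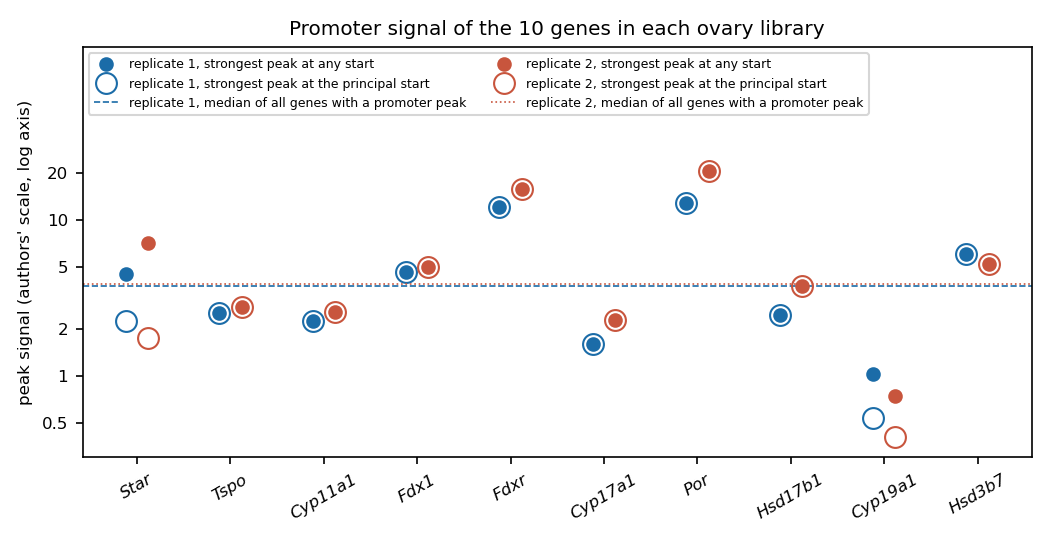
Signal of the strongest promoter peak (authors' scale, log axis) of each gene in replicate 1 (blue) and replicate 2 (red), with filled points for any start, open circles for the principal start and lines for the medians of all genes with a promoter peak. Por and Fdxr lie above 12 in both libraries, Cyp19a1 lies at or below 1.02, and only Star and Cyp19a1 have different values at the principal start.

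Star, the protein that moves cholesterol to the inner mitochondrial membrane (chr8:25806555-25815982, plus strand), had 2 open starts. Its strongest promoter peak was at chr8:25806181-25806540, with a signal of 4.50 in replicate 1 and 7.15 in replicate 2 (5.83 ± 1.88, SD, n = 2). That peak lies just before an alternative upstream start at position 25806555, and its centre is at −2113 bp from the principal start (negative distances here and below are upstream). At the principal start, position 25808474, the peak at chr8:25808301-25808560 had 2.25 and 1.75, or 2.00 ± 0.353. The upstream peak was the stronger in both libraries. It placed Star at percentile 64.9 of all genes with a promoter peak, whereas the principal start alone placed it at 29.4. The upstream peak held 3 footprints found in both libraries and the peak at the principal start held 2. In the peak at the principal start, a match to the TEAD motif CATTCCA was centred at −76 bp, inside a footprint of both libraries. Star had 2 distal regions. The first lay 5.4 kb into the gene, in an exon with untranslated sequence, and had 1.26 and 0.930. The other lay 11048 bp past the principal start, in an intron of Ash2l, and had 0.840 and 0.844 with no footprint in either library.

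Tspo, the translocator protein of the outer mitochondrial membrane, which binds cholesterol, starts at position 83563592 of chromosome 15, on the plus strand. It had 3 open regions near its starts, found in both libraries. The strongest, chr15:83562981-83563160, was centred at −521 bp, with signals of 2.55 and 2.79 (2.67 ± 0.169, SD, n = 2). It held 5 footprints of both libraries, between −586 and −428 bp in replicate 2. The region over the start itself, chr15:83563441-83563700, had 1.24 and 1.16. It had a CpG ratio (CG pairs observed over expected) of 0.685, and the region at −521 bp had 0.158. The third region, chr15:83564181-83564602, centred 800 bp inside the gene, had 1.15 and 0.578. The region over the start and this one also lie within 500 bp of a start of Mcat, so their signals cannot be given to either gene alone. Of the 7 distal regions of Tspo, the highest was at −45.3 kb with 1.89 and 1.63. The next were at −28.4 kb in an intron of Bik (1.32 and 1.63) and at 39.3 kb (1.49 and 1.38).

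Cyp11a1, the side chain cleavage enzyme P450scc (chr9:58006411-58027023, plus strand), was open at a downstream start and had no peak at its annotated 5′ end. No peak and no base with a false discovery rate below 0.05 was listed within 500 bp of position 58006411 in either library. The open region, chr9:58014841-58015100, had 2.24 and 2.59 (2.42 ± 0.252, SD, n = 2), at percentile 34.5. Its centre lies 300 bp past the principal start of GENCODE, position 58014671. RefSeq places a start at position 58014952, inside that region. The region held 1 footprint of both libraries, from 300 to 313 bp past the principal start in replicate 1.

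Cyp11a1 had the most distal regions of the 10 genes, 10 in a window of 121 kb, or 8.29 per 100 kb. This density stood at percentile 97.5 of all genes. Between −5.5 and −2.0 kb lay 4 of them, within an intron of the longer Cyp11a1 transcript. The strongest of all, chr9:58009041-58009340 at −5.5 kb, had 3.09 and 3.35. Next came chr9:58036961-58037200, at 22.4 kb in an intron of Ccdc33, with 2.81 and 3.45. The third was chr9:57965881-57966080, at −48.7 kb, with 2.77 and 2.22. All 3 had signals above those at the Cyp11a1 promoter in replicate 1, and 2 of the 3 did in replicate 2.

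Matches to the NR5A motif CAAGGNCA, the sequence bound by SF-1 (Nr5a1) and LRH-1 (Nr5a2), factors that activate steroid synthesis genes, lay in footprints of both libraries in 3 of these 10 regions. The sequences are shown because they carry those matches, on the plus strand of build GRCm38 (mm10). Capitals mark bases that lie in a footprint in both libraries. In the third sequence, 300 bases in the middle of a 360-bp region are given.

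Cyp11a1, −48.7 kb, chr9:57965881-57966080: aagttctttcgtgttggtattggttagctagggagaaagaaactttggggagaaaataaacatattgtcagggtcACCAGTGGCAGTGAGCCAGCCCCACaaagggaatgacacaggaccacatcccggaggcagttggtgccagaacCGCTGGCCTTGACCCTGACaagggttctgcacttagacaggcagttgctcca

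Cyp11a1, −5.5 kb, chr9:58009041-58009340: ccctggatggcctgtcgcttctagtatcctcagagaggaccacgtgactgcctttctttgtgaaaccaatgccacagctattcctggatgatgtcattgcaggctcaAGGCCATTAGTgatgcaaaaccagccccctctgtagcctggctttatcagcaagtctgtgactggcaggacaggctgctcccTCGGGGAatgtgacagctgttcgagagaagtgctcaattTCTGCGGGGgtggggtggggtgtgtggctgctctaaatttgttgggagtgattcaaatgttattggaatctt

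Cyp11a1, −2.9 kb, chr9:58011591-58011890: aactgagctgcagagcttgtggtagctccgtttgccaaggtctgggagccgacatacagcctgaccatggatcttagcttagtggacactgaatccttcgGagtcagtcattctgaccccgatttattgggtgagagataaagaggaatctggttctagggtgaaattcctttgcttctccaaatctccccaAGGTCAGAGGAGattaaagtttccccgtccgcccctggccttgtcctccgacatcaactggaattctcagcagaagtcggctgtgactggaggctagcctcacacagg

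In the first sequence the match is CAAGGCCA on the minus strand at bases 152 to 159, counted from 1 at the 5′ end of the printed run. In the second it is CAAGGCCA on the plus strand at bases 106 to 113, of which 6 bases lie in the footprints of both libraries. In the third it is CAAGGTCA on the plus strand at bases 191 to 198, again with 6 bases in footprints of both libraries. That match also contains the nuclear receptor core AGGTCA. A second NR5A match in the third sequence, CAAGGCCA on the minus strand at bases 228 to 235, had no base in a footprint of both libraries. The region at −2.0 kb, chr9:58012481-58012780, had 2.05 and 2.23. It was the only distal region of the 10 genes with a GATA match (the letters GATA after A or T and before A or G) in a footprint of both libraries. That is 1 of 59 distal regions, against 0.670% of all 43445 shared distal regions. The GATA letters alone were in 22 of the 59, against 32.3% of all. In the region at −2.0 kb the match is TGATAA on the minus strand at bases 177 to 182 of this sequence:

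Cyp11a1, −2.0 kb, chr9:58012481-58012780: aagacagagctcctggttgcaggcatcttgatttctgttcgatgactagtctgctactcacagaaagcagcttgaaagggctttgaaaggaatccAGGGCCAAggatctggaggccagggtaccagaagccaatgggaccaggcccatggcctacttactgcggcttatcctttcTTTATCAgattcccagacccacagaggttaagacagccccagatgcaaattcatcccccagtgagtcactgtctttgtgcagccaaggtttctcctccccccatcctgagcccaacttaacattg

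Fdx1 encodes ferredoxin, which passes electrons to P450scc and other mitochondrial P450 enzymes (chromosome 9, principal start at position 51963546, minus strand). Its promoter peak, chr9:51963481-51963740, had 4.63 and 4.99 (4.81 ± 0.258, SD, n = 2), at percentile 59.0. It held 3 footprints of both libraries. Fdxr encodes ferredoxin reductase, which feeds electrons from NADPH to ferredoxin (chromosome 11, principal start at position 115277050, minus strand). Its promoter peak, chr11:115276941-115277360, had 12.3 and 15.9 (14.1 ± 2.61, SD, n = 2), at percentile 96.4. It held 7 footprints of both libraries across 420 bp. Fdxr thus stood above its electron acceptor Fdx1 in each library, by 12.3 against 4.63 in replicate 1 and by 15.9 against 4.99 in replicate 2.

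Both promoters have a high CpG ratio, 0.922 at Fdx1 and 0.778 at Fdxr, and both held a match to the SP/KLF motif GGGCGG in a footprint of both libraries. The bases before the first exon are shown from RefSeq (GRCm38.p6), in the direction of transcription, with the same use of capitals.

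Fdx1, chr9:51963603-51963852, minus strand: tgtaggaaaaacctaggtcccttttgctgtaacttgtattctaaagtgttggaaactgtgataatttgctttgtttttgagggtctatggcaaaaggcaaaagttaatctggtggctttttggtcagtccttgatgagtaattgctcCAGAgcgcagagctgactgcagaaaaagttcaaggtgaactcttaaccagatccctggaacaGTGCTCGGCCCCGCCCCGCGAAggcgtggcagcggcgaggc

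Fdxr, chr11:115277051-115277219, minus strand: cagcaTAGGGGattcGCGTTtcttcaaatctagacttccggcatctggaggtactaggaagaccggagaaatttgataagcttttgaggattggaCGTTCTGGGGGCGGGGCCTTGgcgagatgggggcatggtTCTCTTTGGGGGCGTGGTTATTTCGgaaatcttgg

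In the Fdx1 sequence the SP/KLF match is on the minus strand at bases 220 to 225, centred at −85 bp. Of the 250 bases printed for Fdx1, 138 lie in a peak of replicate 1 and only 18, next to the start, in a peak of replicate 2. The match thus lies in the part of the region that is a peak in replicate 1 alone. In the Fdxr sequence the SP/KLF match is on the plus strand at bases 104 to 109, centred at −64 bp. A further SP/KLF match in footprints of both libraries lies at 49 bp. The Fdxr promoter region also held a match to the NF-Y motif (ACCAAT or GCCAAT) in a footprint of both libraries, at −197 bp. Each gene had 7 distal regions. At Fdx1 the highest was at −14.1 kb, with 3.70 and 2.12, and the next was at −0.7 kb, with 1.92 and 2.56. The third was at 47.8 kb, with 1.71 and 1.196. At Fdxr the highest was at −14.0 kb in an intron of Fads6, with 3.02 and 2.31. The next were at 1.4 kb (2.15 and 2.59) and 6.4 kb (2.88 and 1.30), both in introns of Fdxr. All 7 distal regions of Fdxr held a footprint of both libraries, and 5 of 7 did at Fdx1.

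**Figure D2:**
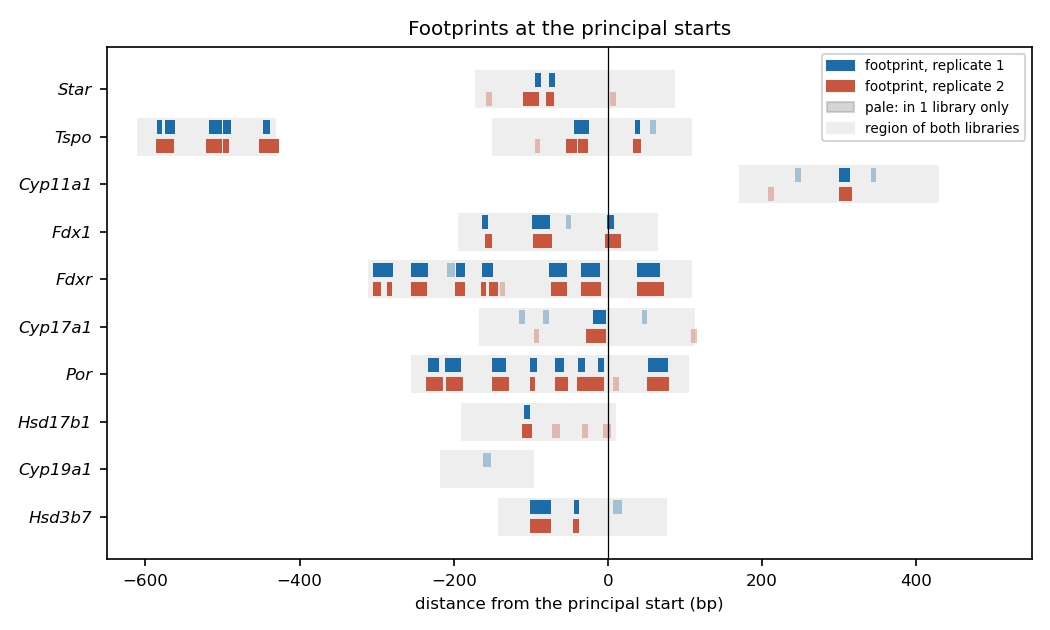
Footprints around the principal start of each gene, by distance from that start in bp, with replicate 1 in blue above replicate 2 in red, pale where the other library has none, and regions of both libraries in grey. Fdxr and Por show rows of footprints at like positions in both libraries, and Cyp19a1 shows a single footprint of replicate 1.

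Cyp17a1, the enzyme that makes androgens from pregnenolone and progesterone in theca cells (chr19:46667165-46673172, minus strand), had a low promoter signal and a group of distal regions on 1 side. Its peak over the principal start, chr19:46672861-46673140, had 1.61 and 2.28 (1.95 ± 0.472, SD, n = 2), at percentile 28.1. A footprint of both libraries ended at −3 bp in each library. A second region, chr19:46670761-46670980, near the start of a retained-intron transcript, had 1.37 and 0.860. All 6 distal regions lay downstream, between 24.8 and 53.8 kb past the start, in introns of Wbp1l. The strongest, chr19:46641781-46642000 at 31.1 kb, had 2.77 and 2.83, above the promoter in both libraries. The regions at 27.6 kb (2.38 and 1.99) and 44.4 kb (1.38 and 1.53) followed. In these 6 regions 4 held a footprint of both libraries.

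The strongest distal region of Cyp17a1 is shown because an NR5A match lies at the edge of its footprints.

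Cyp17a1, 31.1 kb, chr19:46641781-46642000: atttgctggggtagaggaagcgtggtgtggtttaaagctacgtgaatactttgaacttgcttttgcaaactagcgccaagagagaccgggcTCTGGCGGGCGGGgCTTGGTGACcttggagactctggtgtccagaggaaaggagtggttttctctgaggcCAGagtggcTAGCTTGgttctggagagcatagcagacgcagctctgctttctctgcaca

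The match is CAAGGTCA on the minus strand at bases 111 to 118. In replicate 2 its centre lies in a footprint. In replicate 1 the footprint covers only part of it, with 4 of its bases in footprints of both libraries, so it is not among the matches counted below. The core AGGTCA within it, at bases 111 to 116, was centred in footprints of both libraries, as was an SP/KLF match at bases 98 to 103.

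Por, the P450 oxidoreductase that supplies electrons to Cyp17a1, aromatase and other P450 enzymes of the endoplasmic reticulum, lies on chromosome 5, plus strand. It had the strongest promoter of the 10 genes, 12.8 and 20.9 (16.9 ± 5.69, SD, n = 2), at percentile 98.5. The peak, chr5:135688781-135689140, is at the principal start, position 135689036. The annotated 5′ end at position 135670033 had no peak in either library, and a region near a start between them, chr5:135674881-135675140, had 1.99 and 3.78. The peak at the principal start held 7 footprints of both libraries, and SP/KLF matches in such footprints lay at −227, −63 and 64 bp. The bases before the first exon of the principal transcript are shown from RefSeq, and hold the match at −63 bp at bases 76 to 81.

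Por, chr5:135688895-135689035, plus strand: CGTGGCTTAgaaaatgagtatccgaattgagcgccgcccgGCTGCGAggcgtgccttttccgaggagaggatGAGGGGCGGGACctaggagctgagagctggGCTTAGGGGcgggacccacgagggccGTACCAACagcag

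Por had 5 distal regions, or 3.02 per 100 kb in a window of 165 kb. Of these, 3 lay in introns of Por. The highest was at 33.3 kb, with 2.55 and 1.68, followed by −10.3 kb, with 0.947 and 1.56. A region in an intron of Styxl1 at 74.7 kb had 1.70 and 0.875.

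Cyp19a1, the aromatase gene of granulosa cells (chromosome 9, minus strand), had the lowest promoter signal of the 10. The peak at its principal start (position 54193442), chr9:54193539-54193659, had 0.538 in replicate 1 and 0.406 in replicate 2 (0.472 ± 0.0932, SD, n = 2). These are 50 and 52 steps of the libraries' scales, and place the start at percentile 3.67. The lowest false discovery rate in the peak was 0.0073 in replicate 1 and 0.0303 in replicate 2, so it is in the longer peak lists and in neither shorter one. It had no footprint found in both libraries. An NR5A match lies at −167 bp in this peak, with its centre outside the footprints of either library. A stronger peak in the gene, chr9:54181381-54181600 with 1.02 and 0.743, lies near the start of a retained-intron transcript, 11951 bp past the principal start. The annotated 5′ end, at position 54268110, had no peak.

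The strongest open region of the Cyp19a1 window was its only shared distal region, chr9:54204561-54204840, in an intron at −11.3 kb. Its signals were 1.44 and 1.73, above both promoter peaks in each library, and it was in both shorter lists. It held 3 footprints of both libraries. The sequence is shown as the most open stretch found at this gene.

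Cyp19a1, −11.3 kb, chr9:54204561-54204840: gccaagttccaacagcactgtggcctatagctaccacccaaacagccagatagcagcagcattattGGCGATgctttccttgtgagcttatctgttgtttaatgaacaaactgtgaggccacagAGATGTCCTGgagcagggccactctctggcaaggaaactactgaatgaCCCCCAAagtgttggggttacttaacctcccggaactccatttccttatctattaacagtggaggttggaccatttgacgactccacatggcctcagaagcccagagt

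Of the motifs searched, it held an NF-Y match (GCCAAT) centred in a footprint of both libraries, on the minus strand at bases 64 to 69. Only 3 bases of that match lie in footprints of both libraries. It also held 3 GATA matches and a CRE half-site (TGACG, bases 248 to 252 on the plus strand) outside them. With 1 distal region in 202 kb, Cyp19a1 had the lowest density of the 10 genes, 0.495 per 100 kb at percentile 20.7.

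Hsd17b1 encodes the dehydrogenase that turns estrone into estradiol in granulosa cells (chromosome 11, start at position 101078411, plus strand). Its promoter peak, chr11:101078221-101078420, had 2.48 and 3.77 (3.12 ± 0.913, SD, n = 2), at percentile 42.1. It held 1 footprint of both libraries, between −112 and −99 bp in replicate 2. All 9 distal regions lay upstream, between −43.4 and −11.2 kb, with 6 of them in introns of Atp6v0a1. They gave Hsd17b1 the highest density of the 10 genes, 8.81 per 100 kb at percentile 98.3. The strongest, chr11:101063661-101064020 at −14.6 kb, had 3.23 and 5.82, above the promoter in both libraries. The next were at −20.4 kb (4.14 and 2.45) and −18.0 kb (2.81 and 2.82). The region at −20.4 kb is shown because it held 2 NF-Y matches centred in footprints of both libraries, at bases 83 to 88 and 104 to 109 on the minus strand. Of the first match 3 bases lie in footprints of both libraries, and of the second all 6.

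Hsd17b1, −20.4 kb, chr11:101057961-101058140: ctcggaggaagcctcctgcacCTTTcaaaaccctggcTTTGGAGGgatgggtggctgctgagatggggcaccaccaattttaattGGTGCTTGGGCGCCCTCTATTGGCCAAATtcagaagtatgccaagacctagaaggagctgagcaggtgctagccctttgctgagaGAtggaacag

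Hsd3b7 encodes a hydroxysteroid dehydrogenase best known for its step in bile acid synthesis (chromosome 7, principal start at position 127800604, plus strand). Its promoter peak, chr7:127800461-127800680, had 6.06 and 5.21 (5.64 ± 0.599, SD, n = 2), at percentile 65.9. Its CpG ratio was 0.154, and it also lies in an exon of the noncoding transcript 9430064I24Rik. A footprint from −101 to −75 bp had the same ends in both libraries. It is the longer run of capitals in the RefSeq sequence before the first exon.

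Hsd3b7, chr7:127800359-127800603, plus strand: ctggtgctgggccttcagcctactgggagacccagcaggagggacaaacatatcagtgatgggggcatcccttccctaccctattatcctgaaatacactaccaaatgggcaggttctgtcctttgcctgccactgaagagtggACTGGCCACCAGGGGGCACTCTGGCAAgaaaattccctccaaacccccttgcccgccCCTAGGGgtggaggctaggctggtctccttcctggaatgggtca

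The highest of its 5 distal regions, chr7:127768921-127769200, was also the strongest distal region of all 10 genes, with 7.18 and 8.03. It lies at −31.5 kb in an exon of Fbxl19 with untranslated sequence, and was stronger than the Hsd3b7 promoter in both libraries. The next was at −26.4 kb in such an exon of Orai3 (1.60 and 0.891).

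**Figure D3:**
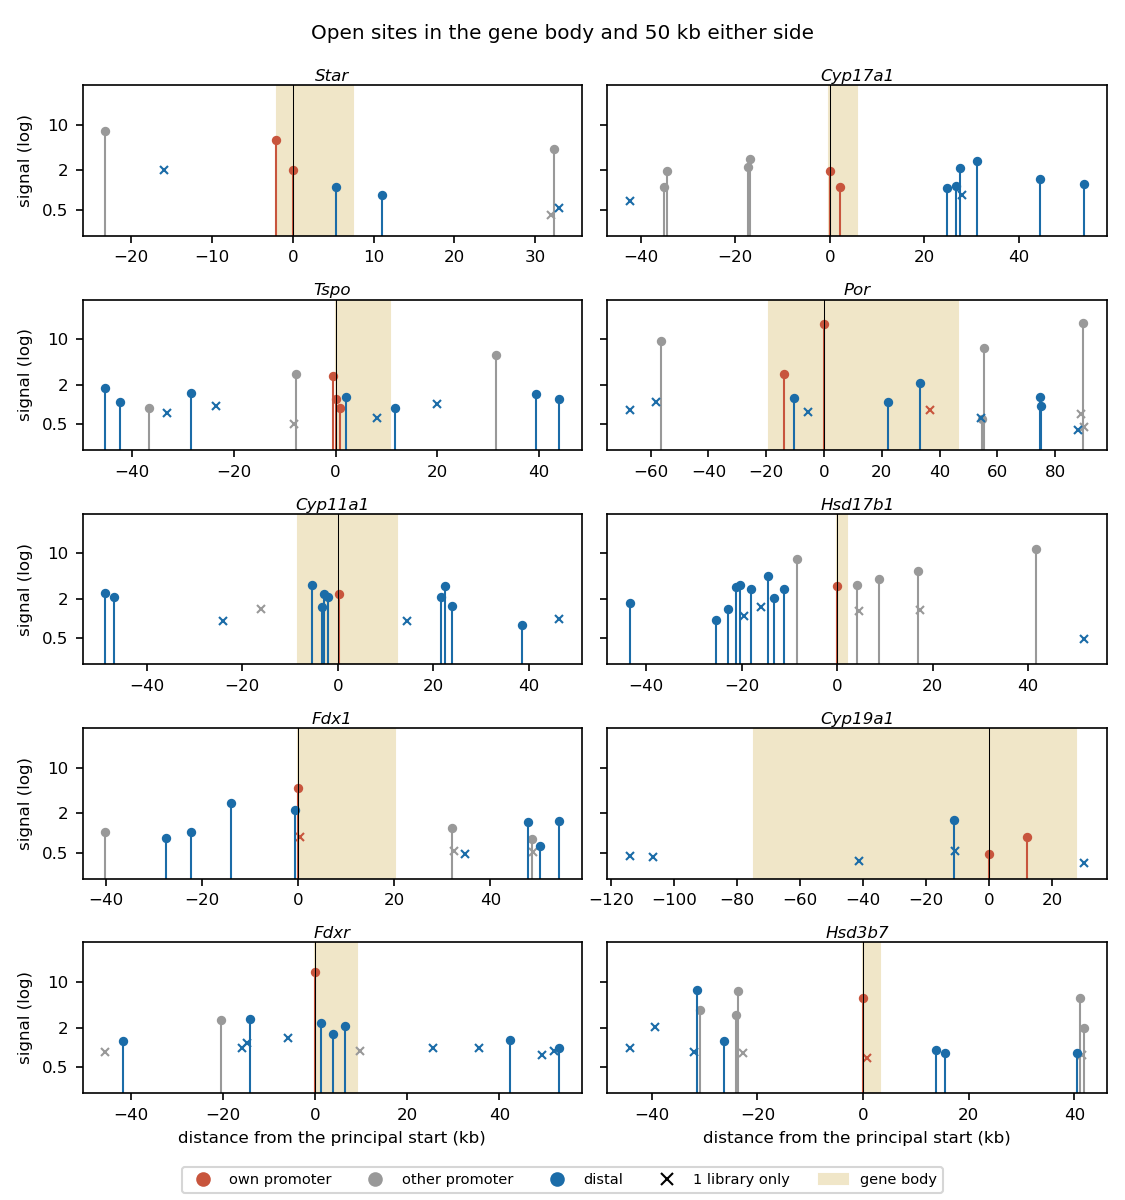
Open sites in the gene body and 50 kb on either side of each gene, by distance from the principal start in kb in the direction of transcription, with mean signal of both libraries on a log axis (points on stems) or the signal of 1 library (crosses). Distal regions of both libraries (blue points) stand only upstream of Hsd17b1 and only downstream of Cyp17a1, and Cyp19a1 has 1, while sites of a single library lie on the other side of both genes and 5 such distal sites lie around Cyp19a1.

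Across the 10 genes, the 59 distal regions were weaker than the promoters, with medians of 1.49 (replicate 1) and 1.53 (replicate 2) for signal, against 2.24 and 2.69 at the 16 regions at the genes' own starts. Their median percentile among all peaks, which include peaks found in 1 library alone, was 72.9. No such median is given here for all shared distal regions, so this value does not show that the 59 are unusually strong. At least 1 distal region was present for all 10 genes, against 80.6% of all genes. The median was 6.5 distal regions, or 5.74 per 100 kb, against 3 and 2.03 for all genes, and 7 of the 10 genes were above percentile 80 in density. The windows count any region in reach, and only 13 of the 59 lay in the body of the gene they were counted for. Another 32 lay in other genes, so which gene a region acts on is not shown by these data. Of the 59, 39 were in introns, 14 between genes, 4 in exons with untranslated sequence, 1 in a coding exon and 1 in a noncoding exon. In all, 46 of the 59 (with 79 footprints of both libraries) held a footprint found in both libraries, against 59.1% of all shared distal regions. At the genes' own starts, 15 of 16 did, against 72.3% of all shared promoter regions.

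**Figure D4:**
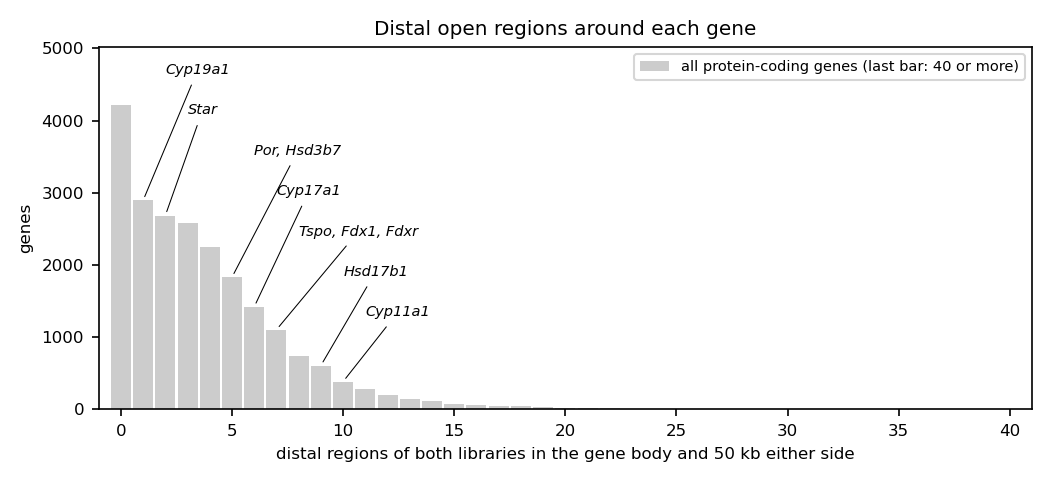
Number of protein-coding genes (bars) by their count of distal regions found in both libraries, in the gene body and 50 kb on either side, with the 10 genes marked. The genes run from 1 region (Cyp19a1) to 10 (Cyp11a1), against a median of 3 for all genes.

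The starts fell into 2 kinds by base composition. Regions over the starts of Fdx1, Fdxr, Por and Tspo, genes used in many tissues, had CpG ratios above 0.6, and these 4 regions were the ones with an SP/KLF match in a footprint of both libraries. The SP/KLF letters GGGCGG themselves contain a CG pair, so these traits are not independent. The other 12 of the 16 regions had ratios below 0.5, among them all regions at Star, Cyp11a1, Cyp17a1, Cyp19a1, Hsd17b1 and Hsd3b7. Over all 21430 shared promoter regions, 26.6% held an SP/KLF match in such a footprint and 59.8% held the letters GGGCGG at all. NF-Y matches in such footprints were present in 2 of the 16 regions, at Fdxr and Tspo, against 3.62% of all.

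Of the 59 distal regions, 17 held the NR5A letters, against 21.6% of all 43445 shared distal regions, and in 4 a match lay in a footprint of both libraries, against 2.52% of all. Those 4 were the 3 regions of Cyp11a1 shown above and 1 of Tspo. By gene, 2 of 10 had such a match, against 8.45% of all genes. The 10 genes also had more distal regions, a median of 6.5 against 3, so the shares by gene are not like for like. None of the 16 regions at the genes' own starts had an NR5A match in a footprint of both libraries. The region of Tspo, at 39.3 kb, is shown for its match, CAAGGTCA on the minus strand at bases 88 to 95, of which 5 lie in footprints of both libraries.

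Tspo, 39.3 kb, chr15:83602761-83603000: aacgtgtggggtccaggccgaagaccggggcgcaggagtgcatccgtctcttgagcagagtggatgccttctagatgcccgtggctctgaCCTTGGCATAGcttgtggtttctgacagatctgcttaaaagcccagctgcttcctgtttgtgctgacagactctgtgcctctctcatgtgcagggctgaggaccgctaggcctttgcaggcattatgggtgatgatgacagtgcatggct

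In all, 15 motifs were searched on both strands, and matches can overlap: the NR5A motif CAAGGNCA contains the core AGGTCA where its N is T, and TGACGTCA contains TGACG. Motifs outside this set were not searched, so any footprint described here may hold other matches that are not named. The core AGGTCA was in footprints of both libraries in 3 distal regions, each within an NR5A match, against 2.42% of all. The motifs AP-1 (TGANTCA) and CRE (TGACGTCA) had no match in such footprints in any of the 59 distal regions. Over all distal regions these shares were 0.589% and 0.186%. In the 250 bases before the principal start, GATA letters were found for 7 of the 10 genes, against 24.5% of all genes, and NR5A letters for 1, Cyp19a1, against 4.99%. For Cyp11a1 these bases lie outside its open promoter region, which is downstream of that start. For Star the bases before its upstream start, where the peak was stronger, were not part of this count. A GATA match in a footprint of both libraries was present in 0 of the 16 regions at the genes' own starts, against 0.597% of all shared promoter regions. Letters are a description of sequence and show neither binding nor its absence.

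Signals of the libraries were close to each other at these genes. At the 102 shared regions, the median log2 ratio of replicate 2 over replicate 1 was 0.11 with a spread (SD) of 0.48, against −0.03 and 0.56 at all 64875 shared regions. Of the 102 regions, 101 lay within 2-fold of the median over all regions, compared with 91.4% of all. The exception was the region of Fdxr at 6.4 kb, with 1.30 in replicate 2 and 2.88 in replicate 1. At the strongest promoter peak, 8 of the 10 genes had the higher value in replicate 2, from Fdx1 (log2 ratio 0.11) to Por (0.70). Cyp19a1 (−0.46) and Hsd3b7 (−0.22) were higher in replicate 1. The share of all genes with the higher value in replicate 2 was not counted. Over all genes with a promoter peak, the medians were 3.78 in replicate 1 and 3.88 in replicate 2. A log2 signal from 4.0 to 4.5 was found at 49 genes in replicate 1 and at 534 in replicate 2. High promoter values were thus more common in replicate 2 over all genes, and are not particular to these genes. Por and Fdxr came first, and Cyp11a1, Cyp17a1 and Cyp19a1 last, in the order of promoter signals in each library. Between them the order changed: Hsd3b7 and Fdx1 were above Star in replicate 1 and below it in replicate 2, and Tspo was above Hsd17b1 in replicate 1 and below it in replicate 2. Differences within these pairs are thus no larger than the spread between the libraries.

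**Figure D5:**
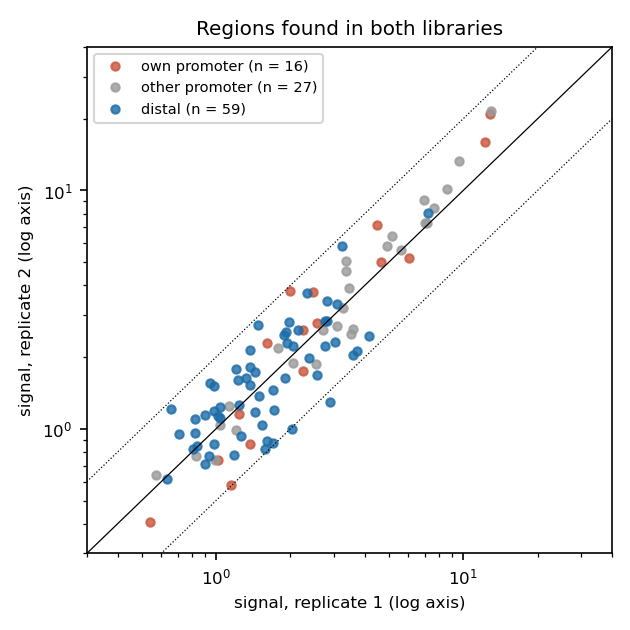
Signal in replicate 2 against replicate 1 (both axes log) at the 102 regions found in both libraries, coloured by class, with the line of equality and dotted lines at 2-fold either way. All regions but 2 distal regions, 1 of Fdxr and 1 of Fdx1 (log2 ratios −1.15 and −1.02), lie within the dotted lines.

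Sites found in a single library had lower median signals than the shared sites of each class in these windows, and medians near the 0.797 of all peaks of a library. The 30 of replicate 1 alone had signals from 0.409 to 2.07, with a median of 0.780, and the 21 of replicate 2 alone from 0.344 to 1.51, with a median of 0.891. The highest, with 2.07 at Hsd3b7 and 2.06 at Star, both in replicate 1, stood at percentiles 81.7 and 81.6 of that library's peaks. In 9 and 3 of them the other library listed a base with a false discovery rate below 0.05, so part of them fell short of a peak there rather than showing no cuts.

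Related genes were open to different degrees. Of 26 other annotated genes that make or convert steroids, 12 had a promoter peak in both libraries, 2 in 1 library and 12 in neither, against a peak in both libraries at 62.3% of all protein-coding genes. The highest were Hsd17b12, which elongates fatty acids and can reduce estrone (11.7 and 20.2), Srd5a1, a steroid reductase (11.7 and 18.5), and Hsd17b7, which acts on cholesterol precursors and on estrone (10.04 and 14.8). Those with no promoter peak in either library were Hsd3b1, Hsd3b2, Hsd3b3, Hsd3b6, Hsd17b3, Cyp11b1, Cyp11b2, Cyp21a1, Srd5a2, Akr1c6, Akr1c18 and Sult1e1. The Hsd3b genes are uncertain, since they are near-identical copies, and how reads shared by the copies were handled is not given. Of 10 other electron transfer genes all were open, led by Cyb5a, a cytochrome b5 (8.87 and 13.1), Mtrr, methionine synthase reductase (8.97 and 11.4), and Cyb5r3, a cytochrome b5 reductase (7.22 and 9.57). Of 16 genes that take up, store or move sterols, 15 were open. They were led by Npc1 and Npc2, which export cholesterol from lysosomes (12.4 and 16.0, and 8.55 and 18.0), and Stard4, a cytosolic sterol carrier (7.36 and 11.5). Tspo2 had a peak in replicate 2 alone.

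Markers of the cell types in the tissue gave a mixed picture, to be read against the same 62.3% of all genes, and their part in these results was not tested. Of 9 granulosa cell markers 8 were open, at a median percentile of 40.8. They ran from Cyp19a1 (1.02 and 0.743) to Inha (4.19 and 5.86), with Foxl2 at 3.81 and 4.28. Fshr had a peak of 0.430 in replicate 2 alone. Of 6 theca and steroid cell markers 5 were open, with Nr5a1 at 3.65 and 4.17 and Insl3 at 0.766 in replicate 2 alone. Cyp19a1 and Hsd17b1 belong to the granulosa list, and Star and Cyp17a1 to the theca list, so these counts include genes described above. Of 4 luteal markers 2 were open, Hsd17b7 (10.04 and 14.8) and Lhcgr (1.43 and 1.56), and Ptgfr had 0.657 in replicate 1 alone. Akr1c18, a gene of the regressing corpus luteum in mice, had no peak. Lhcgr is also in the theca list, and Hsd17b7 and Akr1c18 are also among the steroid genes above. All 4 stromal markers were open, between 0.431 and 4.97 in replicate 1 and between 0.555 and 2.52 in replicate 2. The adrenal cortex, which makes steroids with several of the same enzymes, was represented by Mrap (3.83 and 4.50) and Akr1b7 (0.441 and 0.375), and its markers Cyp11b1, Cyp11b2, Cyp21a1 and Mc2r had no promoter peak. For Leydig cells 0 of 3 markers were open in both libraries, for hepatocytes 0 of 5 and for macrophages 0 of 5. For adipocytes 1 of 5 was open, for endothelium 2 of 4 and for oviduct epithelium 1 of 3. The open oviduct marker was Foxj1 (6.81 and 5.39), and Pax8 and Ovgp1 had a peak in replicate 2 alone.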

How the data were processed

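DNase-seq of whole ovary was analysed in 2 libraries of 1 group, on build mm10 per the labels. Peak strengths in the deposited lists are a signal, scaled by the authors to library depth, and were used to rank and describe peaks. The deposited footprints carry a constant p-value label of 0.01, and deposited false discovery rates, a kind of p-value, are listed only below 0.05. Aligner, callers and the mapping of CAST alleles: not given in the sources used here.

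Main results used the longer peak lists. With a tolerance of 0.05 steps, 100% of signals were whole numbers of the library's step. Peaks, and footprints, were shared if they overlapped by at least 1 bp. Regions within 500 bp of any GENCODE M21 start were promoters and others distal, in windows of the gene and 50 kb either side. Percentiles of signal are within a library, averaged over both, and those of promoters are among genes with a promoter peak. Motif matches were in a footprint if their centre was. Of the RefSeq promoter table (GRCm38.p6), 9 promoters of 6 of the 10 genes matched by symbol, and 4 are printed up to the first exon. Python 3.11.15, NumPy 2.4.6, pandas 2.3.3, pysam 0.24.0 and Matplotlib 3.10.9 were used, and the counting was tested on simulated data.

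No test between groups was possible. The members and lists were chosen with earlier results of these data known. All 10 members are named, with their strongest promoter peak and up to 3 distal regions of highest mean percentile, and of the lists of related genes (not the marker lists) the 3 strongest genes and those with no peak. Of the distal regions that this rule takes in, 1 is not reported here. Other regions and motifs named were chosen after their values were seen. Hsd17b8, Fdx2 and Mln64 were not matched by symbol. Alternatives were the shorter lists, other promoter widths, starts, flanks and overlaps, whole motif matches, and each library left out.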

Additional observations from a re-analysis of the deposited data

How the results depend on the processing

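No paired analysis was possible because the 2 libraries form a single group. The median percentile of the genes' promoter signal, 50.5, was 55.9 with the shorter peak lists, 59.1 at annotated 5′ ends and 40.002 at principal starts, the last an alternative chosen after seeing the data. Leaving out a library gave 46.7 to 54.0. The 59 distal regions became 18 with flanks of 10 kb and 109 with flanks of 100 kb, and 77 or 78 with 1 library alone, which then needs no overlap. Distal regions were 57.8% of shared sites, and 54.5% with the shorter lists, 65.7% and 46.1% with promoters of 250 and 2000 bp, 60.8% with starts of protein-coding genes alone, 45.0% with flanks of 10 kb and 58.2% to 62.1% with 1 library. The 40 promoter footprints of both libraries became 50 to 62 with 1 library. The 2 genes with an NR5A match in a distal footprint became 1 with flanks of 10 kb, 1 if the whole match had to lie in the footprint, and 2 to 5 with 1 library. The counts of open genes moved less: 9 of the 10 genes were open with the shorter lists, where Cyp19a1 fell out, and 7 at annotated 5′ ends. No total of reads was used, so how depth limits weak sites such as the Cyp19a1 promoter is unknown. With 2 libraries, an SD is itself imprecise.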
